A study of Rattus norvegicus with 4 samples.

Results

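Transcript levels of NF-kB subunit genes, of the inhibitors and cofactors that NF-kB itself induces, and of the target gene *Icam1* were examined in rat livers after inhalational anesthesia. The set comprised 10 genes, which were chosen by gene symbol: *Nfkb1*, *Nfkb2*, *Rela*, *Relb*, *Nfkbia*, *Nfkbie*, *Nfkbiz*, *Bcl3*, *Tnfaip3*, and *Icam1*. Of these, 8 genes had a row in each of the 4 expression tables, out of 16982 genes with a row in all tables, whereas *Relb* and *Tnfaip3* had no row under these symbols and were not analysed here. Each of the 4 libraries represented 1 male wild-type Wistar rat, with liver tissue taken from its left lateral lobe. The rats were purchased at 6 weeks of age and kept without food and water for 2 hours before the experiment. The rats inhaled 4.5% sevoflurane or 6.0% desflurane through nose cones with added oxygen. Anesthesia lasted 6 hours in the 6 h groups, and the control of each agent was killed immediately after it had lost consciousness, so that the controls had also inhaled the agent briefly. All rats were killed at a similar time of day. With 1 rat per condition, no difference below has a replicate check, no p-values were calculated, and the difference between the 2 controls is the only measure of how far livers in a like state differed.

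NF-kB is a family of dimeric transcription factors that is held in the cytoplasm by IkB inhibitor proteins in resting cells. Cytokines and microbial products activate the IkB kinase complex, which marks the IkB proteins for destruction and releases the dimers into the nucleus. Among the genes switched on there are those of its own inhibitors, and the fast resynthesis of IkB alpha (*Nfkbia*) and of A20 (*Tnfaip3*) closes the feedback loop. In the liver, the pathway acts in hepatocytes as well as in Kupffer cells and endothelial cells, and it drives acute phase, chemokine, and adhesion genes.

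Where 4 values are listed in a row below, they stand for the sevoflurane control, sevoflurane 6 h, desflurane control, and desflurane 6 h libraries. Expression levels are given as TPM, which is scaled for gene length and library, so that levels may be compared between genes. According to the call rule of the study, a gene was called higher or lower when its TPM value exceeded 2 in the higher library and differed more than 2-fold from the other library. The libraries held between 4.47 and 5.40 Gb of aligned sequence, and between 9474 and 9695 genes had TPM values above 2. Each of the 8 genes exceeded this limit in all 4 libraries, with a read coverage between 5.91 (*Nfkbie* after 6 hours of sevoflurane) and 88.8 (*Nfkbia* in the same library). The values are not read counts, so that no counting errors are given. Against the own control, all genes above 2 TPM in at least 1 of the 2 libraries had a median log2 change of 0.05 (sevoflurane) and 0.12 (desflurane), and the changes below should be read relative to these shifts.

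Markers of liver cell types were summed as a check of the tissue. The 10 hepatocyte markers, led by *Alb*, were all present, with a summed TPM between 112509 and 130016. The 11 Kupffer cell markers in the tables, led by *C1qc*, summed to 809, 485, 641, and 757. Against the own control, 4 of them were called lower with sevoflurane and 0 with desflurane, beside 3.30% and 1.48% of all genes. Against the control of the other agent, 2 were called lower with sevoflurane and 0 with desflurane, beside 2.59% and 1.58%. The sums were 12.8, 4.39, 8.48, and 8.51 for the 9 markers of T and NK cells and 7.54, 2.92, 4.70, and 5.35 for the 5 B cell markers. None of the 7 neutrophil markers exceeded 2 TPM, with sums of 3.18, 2.80, 4.69, and 1.35, and *Mpo* and *Elane* were at 0 in at least 1 library. The 8 endothelial markers, led by *Eng*, summed to between 252 and 291, the 7 stellate cell markers to between 284 and 313, and the 4 cholangiocyte markers to between 14.3 and 21.0. The 7 pancreatic acinar markers summed to 51.8 in the sevoflurane control and to between 15.6 and 18.6 in the other libraries. Nearly all of the latter sums came from *Cela1*, with TPM values of 22.8, 18.4, 15.1, and 15.2. *Ctrb1*, *Pnlip*, and *Prss1* had TPM values of 8.94, 3.45, and 6.58 in the sevoflurane control and 0 elsewhere. Acinar transcripts other than *Cela1* were thus largely confined to the sevoflurane control. The Kupffer, T and NK, and B cell marker sums were thus lowest in the sevoflurane 6 h library. Only 3 of the 9 T and NK cell markers and 2 of the 5 B cell markers exceeded 2 TPM in any library. Single markers differed from the sums. The B cell marker *Ms4a1* had TPM values of 1.32, 1.36, 0.349, and 0.642, and *Cd2*, *Cd3d*, and *Cd3g* were lowest in the desflurane control.

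The feedback genes lay on either side of the controls, while the levels of the subunit genes were similar in all libraries. *Nfkbia* and *Nfkbiz* had higher levels in both 6 h libraries than in both controls, and *Nfkbie* and *Bcl3* had lower levels. Among all genes, 33.3% lay above and 13.3% lay below both controls in this way. *Nfkbiz* was called higher and *Bcl3* was called lower after 6 hours of desflurane. None of the 8 genes was called after 6 hours of sevoflurane against its own control. In bulk liver RNA, fewer cells of a type and less RNA per cell cannot be told apart.

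**Figure D1:**
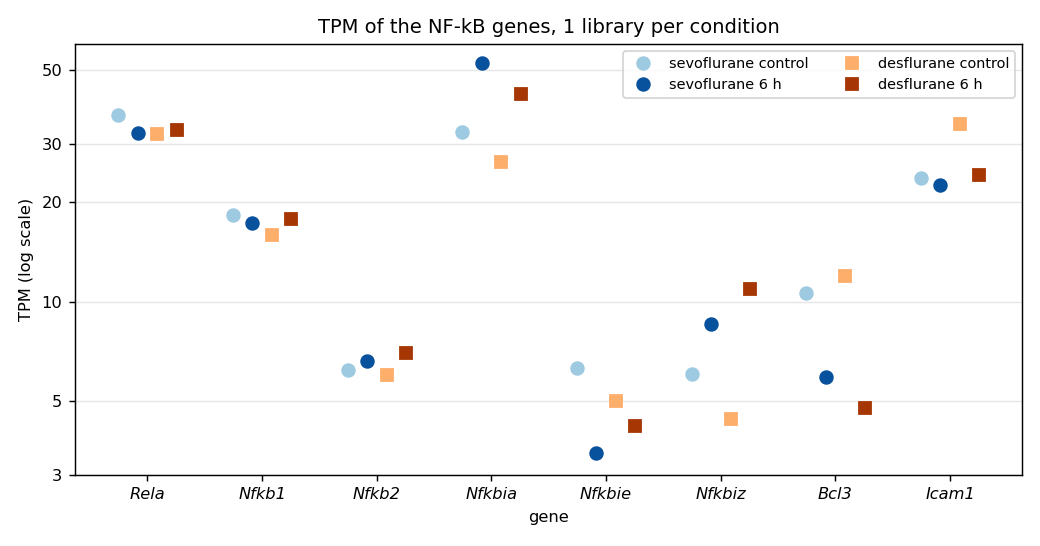
TPM of the 8 measured genes (log scale) in each of the 4 libraries, 1 point per library. The 4 points of *Rela*, of *Nfkb1*, and of *Nfkb2* lie close together, both 6 h points of *Nfkbia* and *Nfkbiz* lie above both controls, and both 6 h points of *Nfkbie* and *Bcl3* lie below them.

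The sequence upstream of the gene start is shown for these 4 feedback genes, whose levels after 6 hours lay outside both controls. NF-kB binds a short DNA motif in its target promoters. The level of the subunit gene *Nfkb2* also lay above both controls, but by only 1.06-fold, and its sequence is not printed. Promoters were taken from RefSeq (build GRCr8), which had an entry for 9 of the 10 genes. The 180 bases before the gene start are printed 5′ to 3′ in the direction of the gene. Capitals mark matches to the NF-kB (kappaB) consensus GGGRNNYYCC on either strand. In it, R is A or G, Y is C or T, and N is any base.
Nfkbia, GRCr8 chr6:78597073-78597252, - strand: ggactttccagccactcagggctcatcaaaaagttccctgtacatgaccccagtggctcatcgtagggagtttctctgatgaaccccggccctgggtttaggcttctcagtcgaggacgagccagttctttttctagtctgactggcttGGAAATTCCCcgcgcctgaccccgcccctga
Nfkbiz, GRCr8 chr11:58251541-58251720, + strand: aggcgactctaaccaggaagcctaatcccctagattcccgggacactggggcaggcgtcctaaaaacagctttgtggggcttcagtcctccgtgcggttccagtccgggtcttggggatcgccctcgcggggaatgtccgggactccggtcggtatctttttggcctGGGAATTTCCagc
Nfkbie, GRCr8 chr9:22947873-22948052, - strand: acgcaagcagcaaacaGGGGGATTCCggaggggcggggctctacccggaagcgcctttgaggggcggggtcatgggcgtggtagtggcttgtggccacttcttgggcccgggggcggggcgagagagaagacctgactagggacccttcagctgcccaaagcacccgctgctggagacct
Bcl3, GRCr8 chr1:88613556-88613735, - strand: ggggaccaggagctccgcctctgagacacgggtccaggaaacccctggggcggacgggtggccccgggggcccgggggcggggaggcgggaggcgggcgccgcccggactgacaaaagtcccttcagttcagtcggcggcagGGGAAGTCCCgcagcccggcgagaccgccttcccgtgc

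The match began 31 bases before the gene start in *Nfkbia*, 13 bases before it in *Nfkbiz*, 164 bases before it in *Nfkbie*, and 38 bases before it in *Bcl3*. Genes that were higher and genes that were lower after 6 hours thus both had a match. In the full window of 250 bases before to 50 bases after the gene start, 7 of the 9 promoters held at least 1 match, compared with 7.51% of the 33469 RefSeq promoters of this length. *Nfkb2* had a match (GGGACTTTCC) 20 bases before its start, *Nfkb1* had one (GGGAATTTCC) just after its start, and *Tnfaip3* had 3 matches. *Rela* and *Icam1* had no full match in this window. The *Icam1* window held TGGAAATTCC, which misses the consensus only at its leading base, so near matches were not counted here. The windows of the 9 genes contained between 57.0% and 76.7% G and C, compared with a median of 51.7% over all promoters. A match describes the letters only, and binding was not measured. The genes were listed as members and known targets of the pathway, so the share with a match is not an independent result. At the *Nfkbiz* locus, the assembled row in the 5′ part of the transcribed region (described with the values of this gene) began 17087 to 17226 base pairs downstream of the annotated start in rn6. The desflurane 6 h library also had a short assembled row near the annotated start (47243568 to 47245614), with a TPM of 1.05. The window shown is that of the RefSeq start.

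First, the genes of the DNA-binding subunits were examined. *Rela*, which encodes the transactivating subunit p65, had TPM values of 36.8, 32.4, 32.1, and 33.0. The sevoflurane control was thus the highest of 4 similar values, and the 6 h libraries overlapped with the controls. *Nfkb1*, which encodes the precursor of the subunit p50, had TPM values of 18.3, 17.3, 16.0, and 17.8. The highest value was 1.15-fold above the lowest for each of these genes. *Nfkb2*, which encodes the precursor of p52 in the noncanonical pathway, had TPM values of 6.24, 6.62, 5.99, and 7.02. Both 6 h values were above both controls, but the gap between them was only 1.06-fold. Within a library, *Rela* was between 1.85-fold and 2.01-fold above *Nfkb1*, which does not depend on the scaling of the libraries. After median-of-ratios scaling, which equalizes the typical gene, both 6 h values of *Rela* were below both controls.

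Next, the genes of the inhibitors were examined. *Nfkbia*, which encodes IkB alpha, is located on chromosome 6 from 76267227 to 76270457 (rn6, minus strand). It had TPM values of 32.6, 52.5, 26.5, and 42.4. Both 6 h libraries were above both controls. Relative to the own control, the level was 1.61-fold with sevoflurane and 1.60-fold with desflurane, equal to log2 changes of 0.69 and 0.68. Against the other agent's control, the log2 change was 0.99 for sevoflurane and 0.38 for desflurane. The controls differed from each other by -0.30 (desflurane control relative to sevoflurane control), and the 6 h libraries by -0.31 (desflurane relative to sevoflurane). *Nfkbia* was not called in any of the 6 comparisons, although sevoflurane against the desflurane control (1.98-fold) was close to the limit and passed it when FPKM was used (log2 change of 1.11).

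*Nfkbie*, which encodes IkB epsilon, lies on chromosome 9 from 17828406 to 17835240 (rn6, minus strand). Its TPM values were 6.32, 3.49, 5.01, and 4.22. Both 6 h libraries were below both controls. The level after 6 hours was 1.81-fold lower with sevoflurane and 1.19-fold lower with desflurane, and the log2 changes were -0.86 and -0.25. Against the control of the other agent, they were -0.52 and -0.58. The order of the agents therefore depended on the control that was used. The sevoflurane 6 h library, with the lowest *Nfkbie* level, also had the lowest Kupffer cell marker sum, and the part of cell content in this value was not tested.

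The balance between these inhibitors was also calculated within each library, a choice made after their values were seen. *Nfkbia* was 5.17-fold above *Nfkbie* in the sevoflurane control and 5.28-fold in the desflurane control. After 6 hours, this ratio was 15.04 with sevoflurane and 10.03 with desflurane. The controls thus had nearly the same ratio, and both 6 h libraries lay well above it. This direction follows from the levels already given, with *Nfkbia* above and *Nfkbie* below both controls, and is not a further result.

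*Nfkbiz* encodes IkB zeta, an atypical nuclear IkB protein that acts as a cofactor at a subset of NF-kB targets. It is located on chromosome 11 from 47243342 to 47271487 (rn6, plus strand). Its TPM values were 6.07, 8.57, 4.44, and 10.9. Both 6 h libraries were above both controls. *Nfkbiz* was called higher with desflurane, with a 2.46-fold increase and a log2 change of 1.30. The 1.41-fold difference with sevoflurane (log2 change of 0.50) was below the limit. When the controls were exchanged, the log2 change was 0.95 for sevoflurane and 0.85 for desflurane, and neither passed the limit, although sevoflurane did so with FPKM (1.07). The desflurane control was 1.37-fold below the sevoflurane control.

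**Figure D2:**
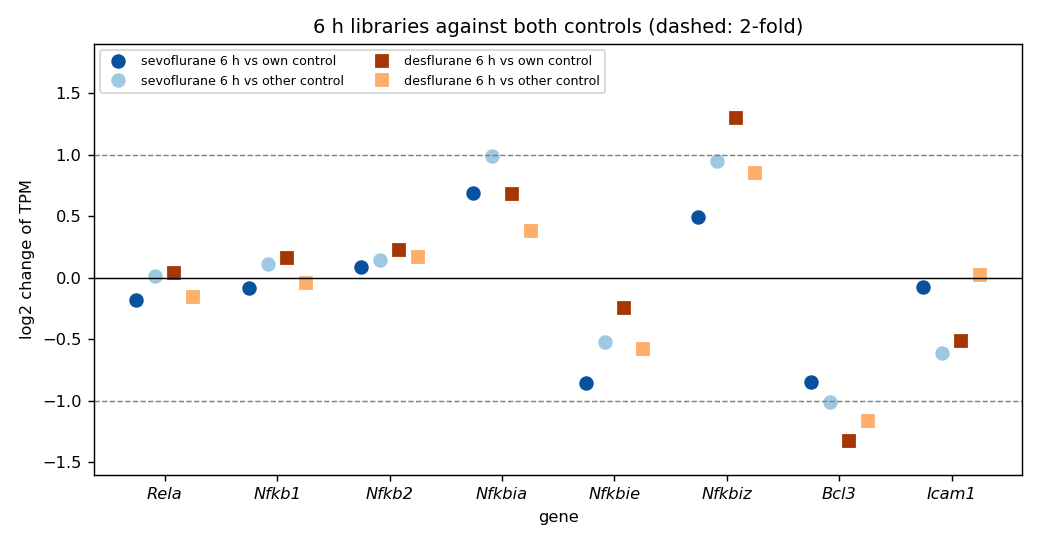
Log2 change of TPM in the 6 h libraries against the own control (dark) and the control of the other agent (light), for sevoflurane (circles) and desflurane (squares). All 4 points lie above 0 for *Nfkb2*, *Nfkbia*, and *Nfkbiz* and below 0 for *Nfkbie* and *Bcl3*, and *Bcl3* passes the 2-fold limit in 3 of them.

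In addition to the annotated row, the tables held 2 long rows assembled by StringTie within *Nfkbiz*, in the 5′ and 3′ parts of the transcribed region. In the sevoflurane control, they covered positions 47260429 to 47264431 and 47266012 to 47271321. The 5′ row had TPM values of 7.60, 14.9, 6.78, and 17.1. The 3′ row had TPM values of 9.07, 8.64, 4.95, and 12.7. With desflurane, the TPM was 2.53-fold above its own control in the 5′ row and 2.56-fold in the 3′ row. With sevoflurane, the 5′ row was 1.96-fold higher, but the 3′ row was 0.952 times its control. The deposited coverage of the same rows, which is not scaled for library size, gave another picture for sevoflurane. It was 8.005, 12.2, 12.7, and 28.9 in the 5′ row and 9.07, 10.4, 8.71, and 14.7 in the 3′ row. By coverage, the 3′ row was thus slightly higher with sevoflurane than in its control, and the 5′ row overlapped between the 6 h libraries and the controls. The sevoflurane 6 h library held 4.47 Gb of aligned sequence and the desflurane control 5.40 Gb. Within the sevoflurane 6 h library, coverage of 12.2 went with a TPM of 14.9 in the 5′ row, and 10.4 with 8.64 in the 3′ row. The scales therefore differed by more than library size, and the reason was not tested. The higher level with desflurane appeared in both rows on both scales, whereas the difference between the rows with sevoflurane depended on the scale. For *Nfkbia*, *Nfkbie*, and *Bcl3*, the assembled row had the same TPM as the annotated row in all 4 libraries (within 1e-05).

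**Figure D3:**
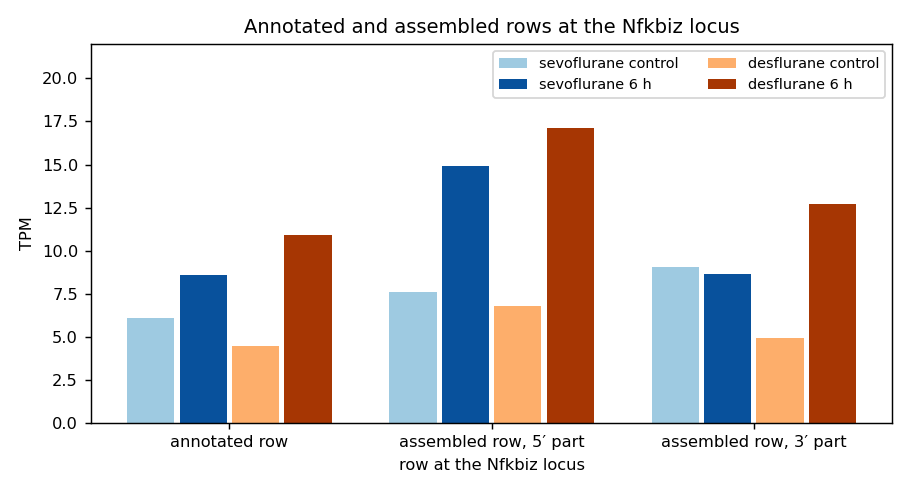
TPM of the annotated *Nfkbiz* row and of the assembled rows in its 5′ and 3′ parts, 1 bar per library. Both 6 h bars exceed both control bars in the annotated row and in the 5′ part, and in the 3′ part the sevoflurane 6 h bar (8.64) is slightly below the sevoflurane control (9.07).

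*Bcl3* encodes another nuclear IkB protein, which binds homodimers of p50 or p52 and modulates their targets. It is located on chromosome 1 from 80730758 to 80744993 (rn6, minus strand). Its TPM values were 10.6, 5.93, 11.9, and 4.76. Both 6 h libraries were below both controls, with a gap of 1.796-fold between the groups, the widest among the 8 genes. The level was 2.51-fold lower with desflurane (log2 change of -1.33), which passed the limit, and 1.796-fold lower with sevoflurane (-0.84), which did not. Against the control of the other agent, *Bcl3* was called lower with both agents, with log2 changes of -1.01 for sevoflurane and -1.16 for desflurane. With sevoflurane, this call was lost when 1 TPM was added to the values (-0.90) or when FPKM was used (-0.89). The controls differed by 0.17. The Kupffer cell marker sum after 6 hours of desflurane (757) lay between those of the desflurane control (641) and the sevoflurane control (809), and the part of cell content in the *Bcl3* values was not tested.

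*Nfkbiz* and *Bcl3*, both of which encode nuclear IkB proteins, thus lay on opposite sides of the controls. The TPM of *Nfkbiz* was 0.570 times that of *Bcl3* in the sevoflurane control and 0.371 times in the desflurane control. After 6 hours, it was 1.44 times that of *Bcl3* with sevoflurane and 2.30 times with desflurane, so that the order of these genes was inverted in both 6 h libraries. This ratio was also chosen after the values were seen, and the direction of its difference from the controls follows from the levels of each gene.

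**Figure D4:**
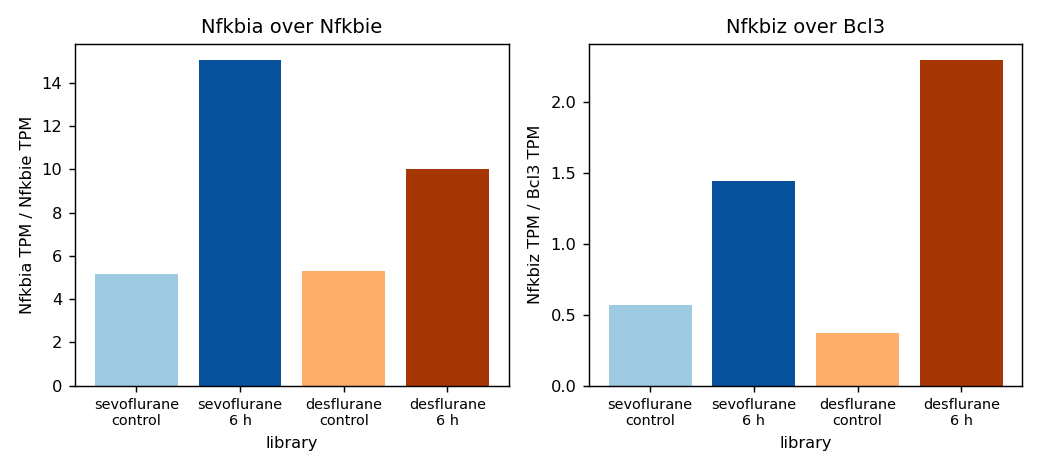
Ratio of TPM values within each library, for *Nfkbia* over *Nfkbie* (left) and *Nfkbiz* over *Bcl3* (right), 1 bar per library. The controls are similar for the first ratio (5.17 and 5.28), and both 6 h bars are higher than both controls for each ratio.

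*Icam1* encodes an adhesion molecule for leukocytes that is a classical NF-kB target in endothelial cells and other liver cells. It lies on chromosome 8 from 22035287 to 22047049 (rn6, plus strand). Its TPM values were 23.7, 22.5, 34.4, and 24.1. The desflurane control stood above the other 3 libraries, which were similar. Against the own control, sevoflurane gave a log2 change of -0.08 and desflurane one of -0.51. With the control of the other agent, it was -0.61 with sevoflurane and 0.02 with desflurane, so the lower level appeared only where the desflurane control was used. After median-of-ratios scaling, both 6 h values were below both controls, with a log2 change of -0.08 for desflurane against the sevoflurane control.

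In terms of TPM, *Rela* was the most abundant of the 8 genes in the sevoflurane control and *Icam1* in the desflurane control. *Nfkbia* was the most abundant in both 6 h libraries, at 1.62 times the level of *Rela* with sevoflurane and 1.28 times with desflurane, compared with 0.887 and 0.824 times in the controls. *Nfkbiz* was the least abundant of the 8 genes in both controls, and *Nfkbie* was the least abundant in both 6 h libraries. In the sevoflurane control, *Nfkbie*, *Nfkb2*, and *Nfkbiz* lay between 6.07 and 6.32, and their order is not meaningful without replicates.

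To put these changes into context, the members were counted beside all genes with TPM values above 2 in at least 1 of the libraries compared. With sevoflurane against its own control, 0 of the 8 genes were called higher and 0 were called lower, compared with 2.23% and 3.30% of 9754 genes. With desflurane, 1 gene (*Nfkbiz*) was called higher and 1 (*Bcl3*) was called lower, compared with 2.79% and 1.48% of 9855 genes. Against the control of the other agent, sevoflurane gave 0 genes called higher and 1 called lower, beside 2.52% and 2.59% of all genes. Desflurane gave 0 called higher and 1 called lower in the same setting, beside 2.84% and 1.58%. No member differed more than 2-fold between the controls, where 2.34% of all genes did so, or between the 6 h libraries, where 3.93% of all genes did so.

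With a lower limit of 1.5-fold, 1 gene (*Nfkbia*) was higher and 2 genes (*Nfkbie* and *Bcl3*) were lower with sevoflurane, compared with 8.03% and 8.08% of all genes. With desflurane, 2 genes (*Nfkbia* and *Nfkbiz*) were higher and 1 gene (*Bcl3*) was lower at this limit, compared with 10.4% and 4.25% of all genes. Both 6 h libraries were above both controls for 3 of the 8 genes, compared with 33.3% of 9993 genes, and below both controls for 2 genes, compared with 13.3%. These counts are not far from the shares among all genes, and the size of the gap differed widely among them, from 1.06-fold for *Nfkb2* to 1.796-fold for *Bcl3*. Against the own control, the 8 genes had a median log2 change of -0.08 (sevoflurane) and 0.10 (desflurane). Against the other control, the corresponding medians were 0.06 and -0.01. The agents share a control in pairs of these comparisons, which are hence not independent.

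The patterns of *Nfkbiz* and *Bcl3* over the 4 libraries were compared with those of 9128 other genes with TPM values above 2 in all libraries, using the root mean square difference of log2 TPM after centering. The genes closest to *Nfkbiz* were *Eci1*, a mitochondrial enzyme of fatty acid oxidation (0.0430), *Ass1*, a urea cycle enzyme (0.0464), and *Fem1a* (0.0560). *Ass1*, for example, had TPM values of 979, 1440, 745, and 1700. The genes closest to *Bcl3* were *Hes6*, a transcription factor of the Hes family (0.0603), *Cldn2*, a tight junction gene (0.0625), and *Nectin1*, an adhesion gene (0.0826). With only 4 libraries, this likeness is a description.

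Next, other genes of the pathway were examined as a list of 86 genes, of which 79 were in the tables and 64 exceeded 2 TPM in at least 1 library. With sevoflurane against its own control, 2 of these genes were called higher and 5 were called lower, and with desflurane, 3 were called higher and 1 was called lower. The shares among all genes were 2.23% and 3.30% with sevoflurane and 2.79% and 1.48% with desflurane. Against the control of the other agent, 2 were called higher and 4 lower with sevoflurane, and 3 higher and 3 lower with desflurane, beside 2.52% and 2.59%, and 2.84% and 1.58%, of all genes. For the pathway genes above 2 TPM, the median log2 change was 0.01 (sevoflurane) and 0.16 (desflurane), close to the median of all genes.

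Among the ligands and receptors, 16 of 17 genes were in the tables and 11 exceeded 2 TPM. *Tlr2*, a receptor for bacterial lipoproteins, was called lower with sevoflurane, from a TPM of 2.41 to 0.994, and was 1.67 in the desflurane control and 2.09 at 6 h of desflurane. This call was lost against the desflurane control (1.68-fold). *Il1b*, which encodes a cytokine that activates the pathway, was called higher with desflurane, from 2.26 to 4.71, whereas it was 4.50 in the sevoflurane control and 2.34 at 6 h of sevoflurane. The desflurane 6 h level of *Il1b* was thus close to the sevoflurane control, and the call was lost with that control. The most abundant genes of the group were *Ltbr*, the lymphotoxin beta receptor, and *Il1r1*, the interleukin-1 receptor. *Ltbr* had TPM values of 116, 174, 93.2, and 170, and *Il1r1* had values of 88.6, 121, 85.5, and 116. Both genes were higher in both 6 h libraries than in both controls, by less than 2-fold.

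Of the adaptors and kinases, 23 of 26 genes were in the tables, 22 exceeded 2 TPM, and none was called with either agent against its own control. The most abundant were *Irak1*, a kinase of interleukin-1 and Toll-like receptor signaling, with TPM values of 65.3, 78.6, 66.6, and 66.1, and *Tab2*, an adaptor of the kinase TAK1, with values of 41.7, 37.9, 39.4, and 42.3. The subunits of the IkB kinase complex, named after their values were seen, also differed little. *Chuk* had TPM values of 30.3, 38.9, 28.6, and 37.7. *Ikbkb* had values of 13.9, 18.8, 16.4, and 17.2, and the regulatory subunit *Ikbkg* had values of 29.4, 33.6, 26.6, and 24.5. The kinase genes *Chuk* and *Ikbkb* were higher in both 6 h libraries than in both controls, which for *Ikbkb* was lost after median-of-ratios scaling, whereas *Ikbkg* overlapped.

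Of the other subunits and inhibitors, 12 of 15 genes were in the tables and all 12 exceeded 2 TPM. *Pdlim2*, which encodes a nuclear ubiquitin ligase for p65, was called higher with desflurane. Its TPM values were 2.46, 2.59, 2.51, and 8.38. The desflurane 6 h library therefore stood apart from 3 nearly equal values, and the call was also made against the sevoflurane control (3.41-fold). *Tax1bp1*, an adaptor of A20, had TPM values of 65.5, 68.9, 66.8, and 78.3. *Itch*, a ubiquitin ligase that acts with A20, had values of 39.8, 33.8, 39.0, and 56.5. Neither was called.

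All 28 listed target genes were in the tables, and 19 exceeded 2 TPM. *Gadd45b*, a stress gene, was called higher with both agents, with TPM values of 3.29, 24.8, 1.93, and 30.9, and it was also called when the controls were exchanged. *Lcn2*, an acute phase gene, was called higher with sevoflurane and lower with desflurane, with values of 3.44, 12.7, 18.5, and 5.92, and it was not called with either agent against the control of the other. The controls themselves differed 5.38-fold for this gene. The chemokine genes *Cxcl1* and *Cxcl10* were called lower with sevoflurane. *Cxcl1* had TPM values of 6.77, 1.02, 3.40, and 2.97, and *Cxcl10* had values of 12.2, 2.02, 7.09, and 4.25. *Tap1* and *Psmb9*, which serve antigen presentation and also respond to interferon, were called lower with sevoflurane, with values of 57.1, 16.6, 30.4, and 23.7 for *Tap1* and 50.2, 16.0, 38.8, and 26.9 for *Psmb9*. Against the desflurane control, the sevoflurane call was lost for *Tap1* (1.84-fold) and was also made for *Psmb9* (2.42-fold), *Cxcl1* (3.34-fold), and *Cxcl10* (3.52-fold). Desflurane was called lower against the sevoflurane control for *Tap1* (2.40-fold), *Cxcl1* (2.28-fold), and *Cxcl10* (2.86-fold), but not for *Psmb9* (1.87-fold). The desflurane control was below the sevoflurane control for *Tap1* (1.88-fold), *Psmb9* (1.29-fold), *Cxcl1* (1.99-fold), and *Cxcl10* (1.72-fold). These 4 genes were lower in both 6 h libraries than in both controls. They were lowest in the sevoflurane 6 h library, as were the Kupffer, T and NK, and B cell marker sums, and the part of cell content in these values was not tested. The most abundant target genes were *Sdc4*, with TPM values of 114, 147, 139, and 229, and *Sod2*, the mitochondrial superoxide dismutase, with values of 76.2, 76.9, 63.7, and 65.5. *Ccl20*, *Cxcl2*, *Il6*, and *Sele* were listed at 0 in all 4 libraries.

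**Figure D5:**
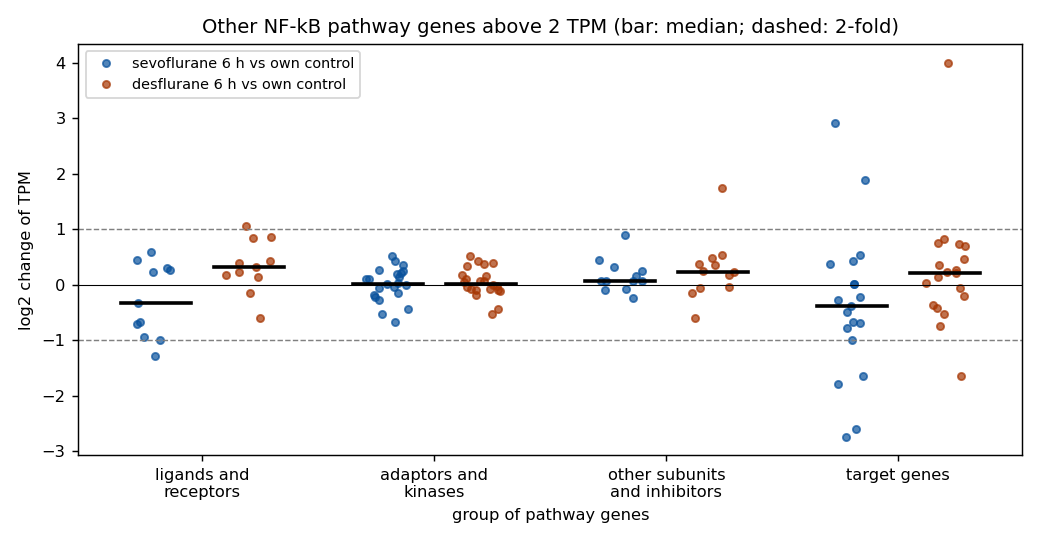
Log2 change of TPM against the own control for the other pathway genes above 2 TPM, 1 point per gene, with the median of each group as a bar. The adaptors and kinases lie within the 2-fold limits for both agents, and the target genes range most widely.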

How the data were processed

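Total RNA from 4 rat livers, 1 per condition, was sequenced. The authors trimmed the reads with sickle, mapped them to rn6 with HISAT2, sorted them with SAMtools, and quantified genes with StringTie, guided by refGene models for rn6. Coverage, as deposited, is the mean read depth over a gene, a signal not scaled for library size. The deposited FPKM values were scaled by the authors for length and library. The deposited TPM column is a signal that StringTie scaled so that its assembled rows add up to 1000000, and annotated rows are on the same scale in addition. The labels and the methods name different Illumina library kits.

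Annotated rows longer than 200 base pairs were used here, TPM values were summed per symbol, and genes with a row in all 4 tables were kept. The call rule of the study (TPM above 2 and more than 2-fold) was applied to each 6 h library against its own control and the other control, and between the controls and the 6 h libraries. A test within an agent was not possible with 1 library per condition, and the agents were not pooled for a test. The members and lists were chosen with earlier results of these data known. Other pathway genes were named when called against the own control or when among the 2 most abundant of their list. For called members, the 3 genes with the most similar TPM pattern were named, and for each marker list the most abundant gene was determined. Alternatives covered the TPM and fold limits, a pseudocount, scaling, FPKM, row choice, length filter, and control. Python 3.11.15, numpy 2.4.6, and pandas 2.3.3 were used, and the call rule was tested on simulated data.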

Additional observations from a re-analysis of the deposited data

Results flagged for a closer look

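The measured members and the pathway genes named by the stated rule comprised 25 genes. Of these, 8 had levels that differed in opposite directions with the 2 agents, each against its own control. The share of all genes that did so was not calculated, and some of these changes were small. After median-of-ratios scaling, *Rela* and *Tab2* were lower with both agents. Whether the agents differed could not be tested with 1 library each. Among the NF-kB subunits, *Rela* had log2 changes of -0.18 with sevoflurane and 0.0401 with desflurane, and *Nfkb1* had changes of -0.0849 and 0.16. These were no larger than the differences between the controls, which were -0.20 for both genes. *Lcn2* had log2 changes of 1.89 with sevoflurane and -1.64 with desflurane, *Il1b* of -0.94 and 1.06, and *Tlr2* of -1.28 and 0.32. *Itch* had changes of -0.24 and 0.54, *Irak1* of 0.27 and -0.0102, and *Tab2* of -0.14 and 0.10. The desflurane control differed from the sevoflurane control by 2.43 for *Lcn2*, -0.99 for *Il1b*, and -0.53 for *Tlr2*. For *Itch*, *Irak1*, and *Tab2*, this difference was -0.03, 0.03, and -0.08. It was larger than either change for *Lcn2* and similar in size to both changes for *Il1b*.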

How the results depend on the processing

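Of 288 counts and medians recomputed under the alternatives, 252 stayed within 1.5 times the count or within 0.1 of the median log2 change, and no called member changed direction. At a fold limit of 1.5, the members called higher and lower were 1 and 2 with sevoflurane and 2 and 1 with desflurane against the own control, and 2 and 2 and 1 and 1 against the other control. The pathway genes called higher and lower at this limit were 4 and 14 with sevoflurane and 9 and 4 with desflurane. The shares among all genes were 8.03% and 8.08% with sevoflurane and 10.4% and 4.25% with desflurane. Against the other control, the pathway genes called higher and lower were 6 and 9 with sevoflurane, with 7 called higher with desflurane. For the other control at this limit, and for the alternatives that follow, shares among all genes were not calculated. At a limit of 3-fold, 0 members were called in any comparison, and against the other control, 1 pathway gene was called higher and 2 lower with sevoflurane and 0 lower with desflurane. Without a TPM limit, 5 pathway genes were called higher and 5 lower with desflurane, and 7 lower against the other control. A limit of 1 TPM gave 2 called lower with desflurane. Adding 1 TPM gave 0 members called lower and 1 pathway gene called higher with sevoflurane against the other control. After median-of-ratios scaling, 4 members, with *Rela* and *Icam1* in addition, had both 6 h libraries below both controls, the median of the members was -0.027 with desflurane and -0.11 against the other control, and 1 pathway gene was called higher with sevoflurane against the other control. With FPKM, sevoflurane against the other control gave 2 members called higher (*Nfkbia* and *Nfkbiz*) and 0 lower, and the medians against the other control were 0.19 with sevoflurane and -0.26 with desflurane. With the mean of the 2 controls, the median with desflurane was -0.0026 and 1 pathway gene was called higher with sevoflurane. Assembled rows, an alternative chosen after seeing the data, left these counts within the same limits. For *Nfkbiz*, this alternative used the 3′ row, with a log2 change of -0.07 with sevoflurane against its own control. The 5′ row had a change of 0.97 in the same comparison. The limits act by construction. So do FPKM and median-of-ratios scaling, which multiply all TPM values of a library by a common factor. Either one therefore moves every gene of a comparison by the same log2 amount. The cause of the other shifts was not tested. No paired analysis was possible because the 2 groups of each comparison hold 1 library each, and a fit over both agents with the agent as a block was not run.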

Other observations

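Of the 64 other pathway genes above 2 TPM, both 6 h libraries were above both controls for 16 genes and below both controls for 10 genes, compared with 33.3% and 13.3% of all genes. The genes below were picked once their values were known. Values are listed for the sevoflurane control, sevoflurane 6 h, desflurane control, and desflurane 6 h libraries. *Otulin*, which encodes a deubiquitinase that removes the linear chains activating the IkB kinase complex, had TPM values of 24.2, 45.1, 27.6, and 38.4. *Il1rn*, the antagonist of the interleukin-1 receptor, had TPM values of 13.8, 19.97, 11.5, and 19.4. Both genes were higher in both 6 h libraries without passing the 2-fold limit in any comparison with a control.

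The receptors of tumor necrosis factor lay on opposite sides of both controls, which for *Tnfrsf1a* was lost after median-of-ratios scaling. *Tnfrsf1a* had TPM values of 78.7, 94.6, 46.9, and 84.2, and *Tnfrsf1b*, which is expressed mainly by leukocytes, had values of 15.5, 7.80, 20.2, and 13.3. Against the own control, *Tnfrsf1b* was 1.99-fold lower with sevoflurane, just inside the limit. Against the control of the other agent, sevoflurane was called higher for *Tnfrsf1a* (2.02-fold) and lower for *Tnfrsf1b* (2.59-fold). The IkB beta gene *Nfkbib*, the remaining classical IkB of the tables, had TPM values of 20.7, 23.1, 17.5, and 16.7 and overlapped between the groups.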
